A study of Mus musculus with 6 samples.

Results

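Transcripts of the Met and EGF receptor axis were followed between mouse muscle satellite cells grown in culture and freshly sorted satellite cells. The genes were 10 in all: the receptors Met, Egfr, Erbb2 and Erbb3, the ligands Hgf, Hbegf, Areg, Ereg and Nrg1, and the receptor inhibitor Errfi1. Each was read from the probe set that the platform annotation gives to that gene alone, taking the brightest over the 6 arrays where there were several. Of the 10 genes, 9 were measured, among 19938 genes on the arrays in all. No probe set carried the name Areg, so this EGF receptor ligand was not analysed here.

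Satellite cells are the stem cells that repair skeletal muscle. The cultured group was 3 arrays of cells kept for 5 days on collagen and laminin in F10 medium with 20% horse serum, to which basic fibroblast growth factor, the only growth factor supplement the labels name, was added each day at 5 ng/ml. The fresh group was 3 arrays of cells taken directly after sorting. All cells came from limb, abdominal and triceps muscle of 2-month-old C57BL/6J mice and were sorted as positive for beta-1 integrin and CXCR4 and negative for CD45, CD31, CD11b, Ter119 and Sca1. The labels speak of 3 mice but do not say which array came from which, so a p-value here reflects the spread between samples, part of which may be technical. Culture was sampled at a single time, and the precision of each value is limited by the number of arrays.

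Hepatocyte growth factor, HGF, binds the receptor tyrosine kinase Met and is known in muscle as a signal that brings quiescent satellite cells into the cell cycle. Ligands of the EGF family bind EGFR or the neuregulin receptors ERBB3 and ERBB4, and ERBB2, which has no known ligand of its own, pairs with the others. The receptors signal through adaptor proteins to the RAS-ERK and PI3 kinase routes, and ERRFI1, also called MIG6 or RALT, binds the EGFR kinase domain and inhibits it as part of a feedback loop.

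All values are log2 expression values, normalized across arrays with RMA by the authors. A background level was set at the 95th percentile of the group means of 1194 olfactory and vomeronasal receptor genes, and was 3.23 for cultured and 3.16 for fresh cells. The group means of Met, Egfr, Erbb2, Hbegf and Errfi1 lay above it in both groups, while those of Erbb3, Hgf, Ereg and Nrg1 lay within it in both. Of 9 satellite cell markers, all but Chodl were above background in both groups, and Chodl, at 2.49 in cultured and 8.39 in fresh cells, was above it in the fresh. In limma 6 of the 9 fell and none rose, namely Pax7, Myf5, Chodl, Calcr, Vcam1 and Sdc4, while Myod1, Cdh15 and Itga7 did not pass. The summed linear level of the 9 was 503 to 826 in cultured and 1605 to 2351 in fresh cells. Myod1 averaged 8.77 in cultured and 9.18 in fresh cells, the highest of the 9 in each group, so the sum leans on it. Of 5 endothelial markers, Pecam1, Cdh5, Kdr and Emcn were within background in both groups, as were 5 of 6 blood and myeloid markers, Ptprc among them. The fifth endothelial marker, Tek, fell to 2.58, within background, against 3.34 in fresh cells, with a limma adjusted p of 0.0413. The sixth myeloid marker, Cd68, averaged 3.14 in cultured cells, within background, and 3.74 in fresh cells, with an adjusted p of 0.0995 in limma. Of 5 mast cell and basophil markers, Mcpt8 rose to 5.30 from 2.20, within background, with a limma adjusted p of 0.00359. The other 4 were within background in both groups. Of 5 epithelial markers, Krt8 and Krt18 were above background in both groups, and none of the 5 passed. None of 5 smooth muscle and pericyte markers passed. The part of such cells in the differences below was not tested.

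Errfi1 and Egfr were lower in the cultured cells, by 7.69-fold and 3.07-fold, and no other member passed the test. The test was limma with Benjamini-Hochberg adjustment over all 19938 genes and a threshold of 0.05 on the adjusted p. Among all genes, 4.32% passed in either direction, 3.37% as lower and 0.953% as higher in the cultured cells. Of the 9 measured members, 2 passed as lower and 0 as higher, and at an unadjusted p under 0.05 in limma 3 were lower and 1 was higher, where 9.06% of all genes were lower and 8.58% higher. After a further quantile normalization of the arrays, 925 genes were lower and 586 higher, in place of 671 and 190 on the deposited scale, and Errfi1 and Egfr were again the members that passed. In bulk RNA, fewer cells of a type and less RNA per cell cannot be told apart.

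**Figure D1:**
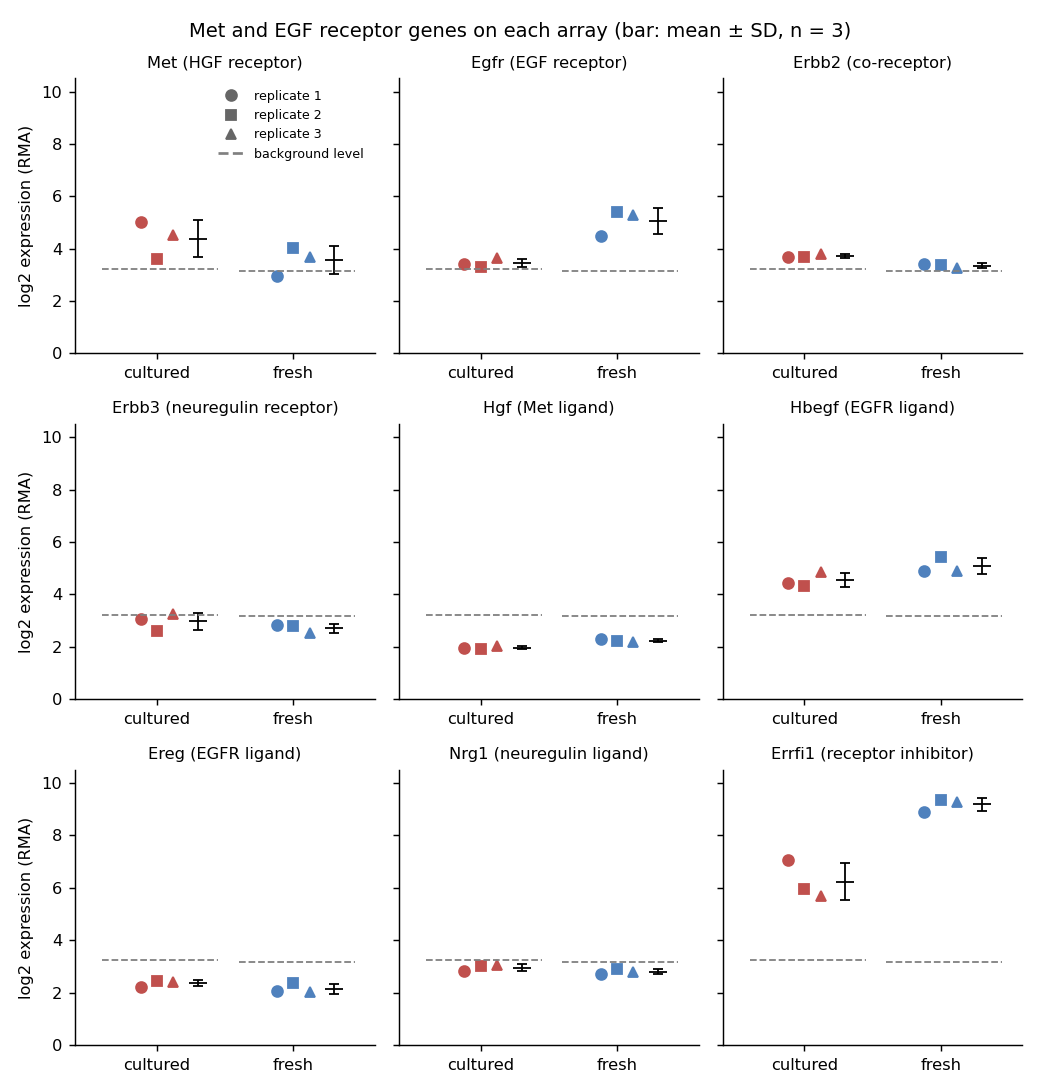
Log2 expression (RMA) of the 9 measured genes on the 3 cultured and 3 fresh arrays, with a marker shape for each replicate number, black bars for the mean ± SD (n = 3 each) and dashed lines for the background level of 3.23 (cultured) and 3.16 (fresh). Errfi1 and Egfr separate widely between the groups, Met overlaps, and Erbb3, Hgf, Ereg and Nrg1 lie around or under the dashed lines.

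The receptor inhibitor Errfi1 showed the largest difference of the measured members. It was at 7.05, 5.97 and 5.71 on cultured replicates 1, 2 and 3, against 8.91, 9.37 and 9.27 on fresh replicates 1, 2 and 3. The groups were separated by 1.86 on the log2 scale, and cultured replicate 1 stood above the other cultured arrays. The means were 6.24 ± 0.71 in cultured and 9.18 ± 0.24 in fresh cells (SD, n = 3 each). The log2 fold change was -2.94 ± 0.33 (SE), with a limma adjusted p of 0.00255, which placed Errfi1 at rank 119 from the lowest fold change among the 19938 genes. Errfi1 kept its call when any single array was left out, at log2 fold changes between -3.35 and -2.67.

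Genes bright in fresh cells read lower as a class on the cultured arrays, though choosing them by their fresh mean can itself lower the class median. Their part in the size of the Errfi1 difference was tested only through other normalizations. For the 257 genes with a fresh mean from 8 to 10, bins set after the values were seen, the median difference from the fresh mean was -0.38, -1.97 and -1.44 on cultured replicates 1, 2 and 3. Errfi1 itself differed from its fresh mean by -2.13, -3.22 and -3.48 on the same arrays, under the class median on each. A gene already called lower is likely to lie under such a median, so this is a description. With a further quantile normalization the Errfi1 log2 fold change was -2.36, and with cyclic loess -2.40, at adjusted p of 0.000300 and 0.000111 in limma. The 4340 genes with a fresh mean from 4 to 6, the class of Egfr and Hbegf, had medians of 0.11, -0.21 and -0.03.

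**Figure D2:**
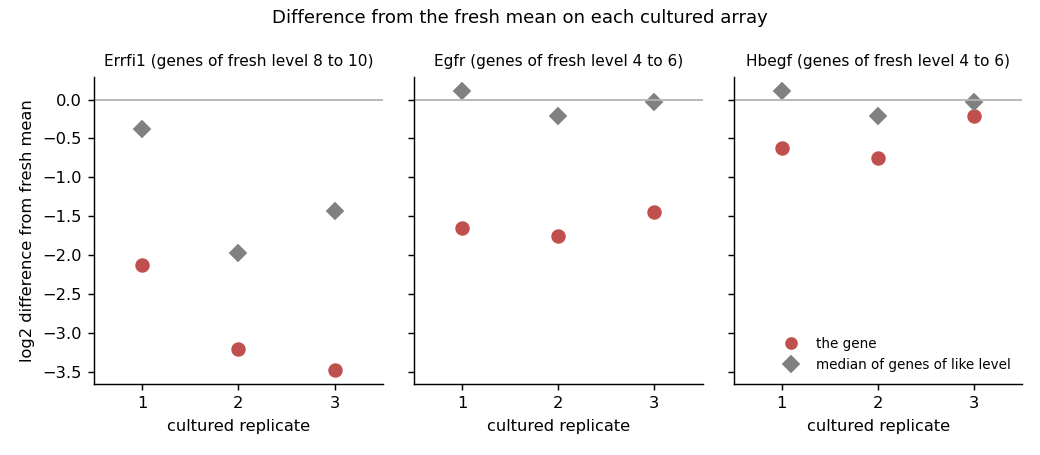
Log2 difference from the mean of the fresh arrays on each cultured array for Errfi1, Egfr and Hbegf (circles), beside the median difference of all genes of like fresh level (diamonds). Errfi1 lies under the median of its class, itself as low as -1.97, on all 3 cultured arrays. Egfr lies under the median of a class whose medians are between -0.21 and 0.11. Both genes were already called lower, so their place under a median is a description.

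The EGF receptor gene Egfr fell to within a short distance of the background level. It was at 3.40, 3.31 and 3.62 on the cultured arrays, against 4.50, 5.42 and 5.27 on the fresh arrays. The groups did not overlap, and fresh replicate 1 was the lowest of the fresh arrays. The means were 3.45 ± 0.16 in cultured and 5.06 ± 0.49 in fresh cells (SD, n = 3 each), and the log2 fold change was -1.62 ± 0.25 (SE) with a limma adjusted p of 0.00986. Since the cultured values lie near a background of 3.23, where RMA compresses differences, the fold can be understated. The call was lost without fresh replicate 3, at -1.51 with a limma adjusted p of 0.0576, and was kept without each of the other arrays, at -1.90 to -1.44.

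Markers of fibro-adipogenic cells, another cell type of muscle, also moved between the groups. Of 7 such markers, 3 fell and none rose in limma, namely Dcn, Dpt and Col3a1, and Lum was within background in both groups. Their summed linear level was 117 to 124 in cultured and 403 to 703 in fresh cells. Across the fresh arrays it was 703, 539 and 403 on replicates 1, 2 and 3. The markers in it did not share that order. Dcn was at 8.53, 7.78 and 5.86 on those arrays, while Dpt was at 7.39, 7.24 and 7.68. The summed satellite cell markers were at 1605, 2351 and 1915 on the fresh arrays, and at 826, 503 and 772 on cultured replicates 1, 2 and 3. Myod1, on which that sum leans, was at 8.90, 9.75 and 8.89 on the fresh and 9.03, 8.28 and 8.99 on the cultured arrays. Pdgfra, the surface receptor that defines fibro-adipogenic cells, was at 3.57 to 3.67 in cultured and 3.23 to 3.61 in fresh cells. The summed level of 4 tendon markers, none of which passed in limma, was 144, 66 and 49 on fresh replicates 1, 2 and 3. It was 81 to 99 on the cultured arrays. The part of other cell types in the Egfr difference was not tested.

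Met, the receptor of HGF, had values that overlapped between the groups. It was at 5.00, 3.61 and 4.53 on the cultured arrays, against 2.97, 4.01 and 3.68 on the fresh arrays. Cultured replicate 2 lay below fresh replicates 2 and 3, and fresh replicate 1 was within background. The means were 4.38 ± 0.71 in cultured and 3.55 ± 0.53 in fresh cells (SD, n = 3 each). The log2 fold change of 0.83 had a 95% confidence interval of -0.06 to 1.73, not adjusted for the number of genes, and a limma adjusted p of 0.319. The estimate moved with single arrays. It was 0.52 without cultured replicate 1, 0.54 without fresh replicate 1 and 1.22 without cultured replicate 2.

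Erbb2, the pairing partner of the other EGF family receptors, was slightly higher in every cultured array but did not pass. It was at 3.67, 3.66 and 3.80 on the cultured arrays, against 3.42, 3.38 and 3.24 on the fresh arrays. The log2 fold change was 0.36, with an unadjusted 95% interval of 0.06 to 0.66 and a limma adjusted p of 0.196, and both means lay within about 0.5 of background. A further probe set lists Erbb2 together with another gene and was not used. The neuregulin receptor Erbb3 was within background in the mean of each group, at 3.07, 2.61 and 3.24 on the cultured arrays, against 2.83, 2.79 and 2.52 on the fresh arrays. Cultured replicate 3 alone reached the background level. Of 3 measured markers of Schwann cells, a cell type in nerve that carries ERBB3, S100b was within background in both groups. Mbp was above it in both, at 3.64 to 3.77 in cultured and 3.57 to 3.72 in fresh cells. Sox10 was at 3.32 to 3.68 in cultured and 3.26 to 4.56 in fresh cells, with its highest value on fresh replicate 1.

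**Figure D3:**
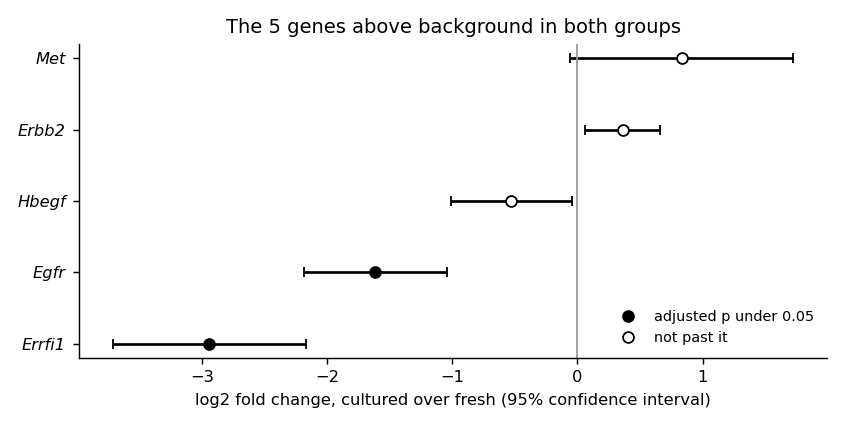
Log2 fold change, cultured over fresh, with 95% confidence intervals from limma (not adjusted for the number of genes) for the 5 genes above background in both groups. Filled points passed the adjusted threshold: Errfi1 at -2.94 and Egfr at -1.62. The interval of Met includes 0, while those of Hbegf and Erbb2 exclude it without the adjusted p passing.

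Of the 4 measured ligands among the members, Hbegf alone was above background, and it did not pass the test. Hbegf encodes heparin-binding EGF-like growth factor, a membrane-anchored ligand of EGFR and ERBB4 that is released by shedding. It was at 4.45, 4.33 and 4.86 on the cultured arrays, against 4.89, 5.43 and 4.91 on the fresh arrays. The groups were separated by only 0.03 on the log2 scale, between cultured replicate 3 and fresh replicate 1. The log2 fold change was -0.53, with an unadjusted 95% interval of -1.02 to -0.04 and a limma adjusted p of 0.242.

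The remaining ligands gave values within background in both groups, so no fold is given for them. Hgf, the ligand of Met, was at 1.95, 1.93 and 2.02 on the cultured arrays, against 2.28, 2.22 and 2.19 on the fresh arrays. Its groups did not overlap, but the limma adjusted p was 0.316 and every value lay well under the background level. Ereg, the EGF receptor ligand epiregulin, was at 2.21, 2.44 and 2.41 on the cultured arrays, against 2.04, 2.35 and 2.03 on the fresh arrays, with overlapping groups. Nrg1, a neuregulin that binds ERBB3 and ERBB4, was at 2.81, 3.02 and 3.04 on the cultured arrays, against 2.71, 2.91 and 2.77 on the fresh arrays, also with overlap. These readings do not show that the transcripts were absent, only that their probe sets read no higher than those of olfactory and vomeronasal receptor genes. Counting all measured members, the groups did not overlap for 5 of 9, which were lower for 4 and higher for 1. Among all genes 23.2% had groups that did not overlap, 10.3% lower and 12.9% higher.

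Promoters are shown for the called members, Errfi1 and Egfr, and for Met. The series title names Fos, which forms part of the factor AP-1. The RefSeq table for GRCm38.p6 held 8 windows for 6 of the 10 genes, namely Areg, Egfr, Erbb2, Errfi1, Hgf and Met. Each was read over the 250 bases before an annotated start. Capitals mark matches to the AP-1 site TGANTCA or the cyclic AMP response element TGACGTCA, on either strand.
Errfi1 (chr4:150854820-150855069, + strand): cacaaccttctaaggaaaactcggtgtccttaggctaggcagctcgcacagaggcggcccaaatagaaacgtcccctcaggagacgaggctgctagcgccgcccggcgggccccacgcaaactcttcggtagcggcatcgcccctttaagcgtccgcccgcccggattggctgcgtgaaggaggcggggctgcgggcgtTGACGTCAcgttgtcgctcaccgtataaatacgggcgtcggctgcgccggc
Egfr (chr11:16751953-16752202, + strand): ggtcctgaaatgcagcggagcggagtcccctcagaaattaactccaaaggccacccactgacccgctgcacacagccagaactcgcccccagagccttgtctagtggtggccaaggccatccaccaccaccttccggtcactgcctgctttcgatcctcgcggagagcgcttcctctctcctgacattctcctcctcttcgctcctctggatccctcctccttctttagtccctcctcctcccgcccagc
Met (chr6:17463707-17463956, + strand): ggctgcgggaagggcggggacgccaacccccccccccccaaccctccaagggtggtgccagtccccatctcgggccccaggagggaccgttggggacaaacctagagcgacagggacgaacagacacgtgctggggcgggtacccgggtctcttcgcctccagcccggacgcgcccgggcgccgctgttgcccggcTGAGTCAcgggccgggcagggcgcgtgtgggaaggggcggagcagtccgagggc

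The Errfi1 window, at the downstream of its 2 annotated starts, held the cyclic AMP response element at 51 to 44 bases before the start, followed by a TATA box (TATAAA) at 28 to 23. The Errfi1 window at the upstream start held none of the motifs searched. A cyclic AMP response element was found in 1.55% of all 32851 windows, and the TATA box in 12.4%. The Areg window also held both, at 61 to 54 and 31 to 26 bases before its start. The Met window held the AP-1 site at 54 to 48 bases before the start, a motif present in 6.75% of all windows. The GC box (GGGCGG, in 32.7% of all windows) was in the Areg, Egfr and Met windows and in the Errfi1 window shown, and the Egfr window held no other motif searched. The shorter element TGACG, which every cyclic AMP response element contains, was in 17.8% of windows and otherwise in those of Areg and Erbb2 among these genes. The SRF CArG box was in 1.47% of windows and in none of these 8. These matches are of letters only, and none of them was tested for binding here.

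Genes with the array pattern most like that of each called member were found from the root mean square difference over the 6 arrays, after each gene was centred on its own mean. For Errfi1 they were Ddx5, an RNA helicase, at a difference of 0.18 on the log2 scale, and Nfib, a nuclear factor I transcription factor, at 0.21. Ddx5 was at 8.05, 7.16 and 6.95 on the cultured arrays, against 9.81, 10.11 and 10.14 on the fresh arrays. Its log2 fold change was -2.64, with -1.88 after quantile normalization and -1.73 with cyclic loess. For Egfr they were S1pr3, a receptor for sphingosine 1-phosphate, at 0.10, and Fbxo11, a substrate-binding subunit of a ubiquitin ligase, at 0.11. S1pr3 was at 3.15, 3.10 and 3.38 on the cultured arrays, against 4.38, 5.34 and 4.87 on the fresh arrays. Its cultured mean of 3.21 lay within background. The likeness rests on 6 arrays in 2 groups and is a description. The genes were picked for it, so an order of arrays shared with the member follows from the choice.

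In the rest of the pathway, 6 of 67 measured genes fell and none rose, beside 3.37% of all genes lower and 0.953% higher. Of the 67 genes, 57 were above background in a group. Among the 11020 genes left by a filter on dim genes, 712 were lower and 200 higher. The 6 were the signal relay genes Stat3, Pik3r1 and Gab1, the brakes Ptpn1 and Spred1, and the protease gene Plau. In limma 13 were lower and 3 higher at an unadjusted p under 0.05, beside 9.06% and 8.58% of all genes. The median log2 fold change of the 67 genes was 0.04, as it was over all genes. The remaining genes of the 73 listed were not analysed here.

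**Figure D4:**
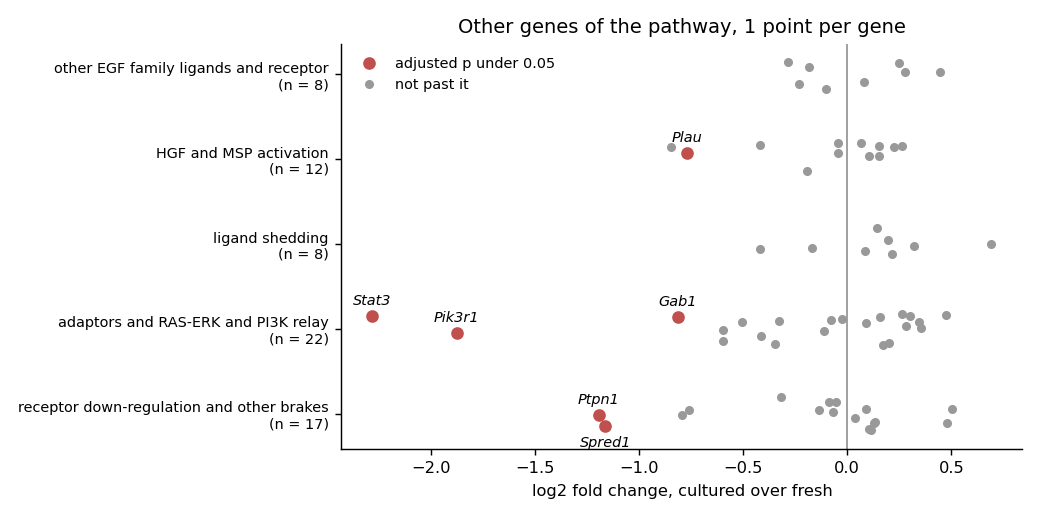
Log2 fold change, cultured over fresh, of 67 other genes of the pathway in 5 lists, with 1 point per gene and jitter on the vertical axis. The 6 coloured points are the genes past an adjusted p of 0.05, all to the left of 0, with Stat3 at -2.28 the lowest; fold changes of genes within background in both groups are drawn but not interpretable.

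Among adaptors and the RAS-ERK and PI3 kinase relay, 3 of 22 measured genes fell and none rose, and the median was -0.05. Stat3, a transcription factor activated downstream of Met and EGFR and of cytokine receptors, was at 4.57, 4.62 and 4.06 on the cultured arrays, against 6.01, 7.16 and 6.93 on the fresh arrays. Its log2 fold change was -2.28 ± 0.31 (SE), with a limma adjusted p of 0.00573, and the call held without any single array. Pik3r1, the p85-alpha regulatory subunit of PI3 kinase, was at 2.53, 3.04 and 2.92 on the cultured arrays, against 4.39, 5.34 and 4.38 on the fresh arrays. Its cultured mean lay within background, so the difference, with a limma adjusted p of 0.00927, is given as a bound of -1.48 on the log2 scale against that level.

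Gab1, the docking protein that binds Met directly and also serves EGFR, was at 3.71, 3.94 and 3.75 on the cultured arrays, against 4.33, 4.80 and 4.71 on the fresh arrays. Its log2 fold change was -0.81, with a limma adjusted p of 0.0369. That call was lost when replicate 2 or 3 of either group was left out, with adjusted p reaching 0.150. Akt2, a kinase downstream of PI3 kinase, was at -0.60 with an adjusted p of 0.0875 in limma. Its groups did not overlap, but the value was -0.29 after quantile normalization and -0.23 over the mean of its probe sets.

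Of 17 genes of receptor down-regulation and other brakes, 2 fell and none rose, with a median of -0.05. Ptpn1, a tyrosine phosphatase that acts on EGFR and Met, was at 3.97, 3.41 and 3.77 on the cultured arrays, against 5.08, 4.65 and 5.02 on the fresh arrays. Spred1, an inhibitor of RAS-ERK signalling, was at 4.38, 3.91 and 4.26 on the cultured arrays, against 5.19, 5.18 and 5.67 on the fresh arrays. Neither gene's groups overlapped, and the log2 fold changes were -1.19 for Ptpn1 and -1.16 for Spred1, with limma adjusted p of 0.0132 and 0.0153. The Ptpn1 call was lost on leaving out cultured replicate 3, fresh replicate 1 or fresh replicate 3, where the adjusted p reached 0.0718. The Spred1 call was lost on leaving out replicate 3 of either group, where it reached 0.0669. Lrig1, a membrane protein that promotes degradation of EGF family receptors, was at -0.76 with an adjusted p of 0.202 in limma. Nedd4, a ubiquitin ligase, was at -0.79 with 0.352, and at -0.36 without cultured replicate 2, -1.18 without cultured replicate 1 and -0.26 after quantile normalization.

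Among genes linked to the activation of HGF and the related MSP, inhibitors and receptors included, 1 of 12 fell and none rose, with a median of 0.01. Plau, the urokinase protease able to activate HGF, was at 4.33, 4.28 and 4.37 on the cultured arrays, against 4.88, 5.27 and 5.14 on the fresh arrays. Its log2 fold change was -0.77, with a limma adjusted p of 0.0264, lost when replicate 2 or 3 of either group was left out, where it reached 0.109. Plat, the tissue plasminogen activator, was at -0.85 with an adjusted p of 0.0655 in limma, and passed after quantile normalization at 0.0280. The urokinase receptor gene Plaur was at -0.42 with an adjusted p of 0.442. Mst1r, the MSP receptor gene, was within background in both groups.

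None of the 8 genes of ligand shedding passed, with a median of 0.17, and 1 was lower and 1 higher at an unadjusted p under 0.05 in limma. Adam19, a membrane metalloprotease, was at 4.76, 4.36 and 4.53 on the cultured arrays, against 3.62, 4.18 and 3.78 on the fresh arrays. Its log2 fold change was 0.69, with a limma adjusted p of 0.0954, and it passed after quantile normalization at 0.0274. Rhbdf2, which assists the shedding enzyme ADAM17, was at -0.42 with an adjusted p of 0.234, Adam10 at 0.32 with 0.404, and Adam8 at 0.22 with 0.547. Nor did any of the 8 further EGF family ligands and receptor pass, with a median of -0.01 and 1 gene higher at an unadjusted p under 0.05. That gene was Egf, at 3.87, 3.41 and 3.66 on the cultured arrays, against 3.25, 3.22 and 3.14 on the fresh arrays, with a log2 fold change of 0.44 and a limma adjusted p of 0.183. Nrg2, a neuregulin, was at 0.28 with 0.420. Tgfa, an EGF receptor ligand named here after its values were seen, averaged 4.71 in cultured and 4.90 in fresh cells, with a limma adjusted p of 0.629. Epgn, the ligand epigen, was within background in both groups, and the neuregulin receptor Erbb4 averaged 2.91 on the cultured arrays, within background, and 3.20 on the fresh arrays.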

How the data were processed

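RNA of 3 cultured and 3 fresh samples was hybridised to Affymetrix whole-transcript arrays, per the labels. The deposited log2 values of 35556 probe sets were made by the authors with RMA and the package oligo, with no version stated, per the submitters' processing notes. The build behind the arrays is not stated there. The platform annotation gave 21789 probe sets 1 gene, with symbols updated to GRCm38.p6, and the probe set with the highest mean was kept for each of 19938 genes.

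The test was limma 3.58.1 in R 4.3.3 (lmFit, eBayes) with group as the single term and p-values adjusted by Benjamini-Hochberg over all genes, dim ones included. Code was tested on simulated data. Members, pathway and marker lists were chosen with earlier results of these data known. Named were all members, the 4 genes of each pathway list with the largest absolute fold change, and the 2 genes most alike to each called member, other than predicted, olfactory receptor and small RNA genes. A promoter motif match is a description. Alternatives were a replicate block, 3 rescalings, another prior, array weights, a filter, other probe set rules, treat and leaving out each array.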

Additional observations from a re-analysis of the deposited data

How the results depend on the processing

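Across 16 alternatives, or 15 for genes that the filter on dim genes removed, no gene named by the stated rule changed direction. Tgfa and the cell type markers were not run in them. Errfi1 kept its call in all 16, at log2 fold changes of -3.35 to -2.36, and Egfr in 15, at -1.90 to -1.44. No member that missed the threshold passed it under any alternative run for it, which were 15 for Erbb3, Hgf, Ereg and Nrg1, since the filter on dim genes removed these. The count of members past it was 1 to 2 when an array was left out. The count of genes past it, 861, was 1511 after quantile normalization, 1492 with cyclic loess, 1371 when arrays were centred on genes above background, 1742 with array weights, 557 with treat against 1.2-fold, and 448 to 1517 when an array was left out. The cause of these shifts was not tested. It was 448 without cultured replicate 3, 478 without fresh replicate 2, 471 without fresh replicate 3 and 1517 without cultured replicate 1. With the replicate block it was 662, with 2 members called, and the calls of Plau and Gab1 were lost, at adjusted p of 0.0783 and 0.0625. Same-numbered arrays deviated with correlations of -0.09, -0.14 and 0.03 across genes, and no cultured array correlated best with its own number, so the numbers were not taken as pairs. Plau and Gab1 also lost their calls with treat, and Plau with a trended and robust prior. Signal near background limits what can be said of Erbb3, Hgf, Ereg and Nrg1.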
